A study of Homo sapiens with 4 samples.

Results

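Fatty acid synthesis and the activation of fatty acids to acyl-CoA are carried by a small group of enzymes, and 10 of their genes were followed in A549 cells with and without glutamine: FASN, ACLY, ACACA, ACACB, ACSS2, ME1, ACSL1, ACSL3, ACSL4 and ACSL5. They were taken by name from 58560 genes to which the estimated transcript counts of each library were summed by Ensembl gene identifier. A549 is a human lung adenocarcinoma cell line of epithelial origin, known to carry inactivating mutations of STK11 (LKB1, a kinase that activates AMPK) and KEAP1. RNA sequencing covered 4 libraries, 2 of control cells in complete medium and 2 of cells moved, after washes in buffered saline, to DMEM with serum but without glutamine. The protocol gives 24 hours of deprivation, and the label of deprived replicate 2 gives 25. Deprived cells still had serum, a source of lipid, and whether control cells were washed too is not given in the sources used here. Nothing says that replicates were separate cultures, so p-values measure only the spread between these samples, which may be technical.

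Lipogenesis turns cytosolic citrate into fatty acids. ACLY splits citrate to acetyl-CoA, ACSS2 makes acetyl-CoA from acetate, the carboxylases ACACA and ACACB convert it to malonyl-CoA, and FASN builds palmitate from both with NADPH, part of which comes from malic enzyme (ME1). The ACSL enzymes attach coenzyme A to long-chain fatty acids, made or taken up, so that these can enter glycerolipids, elongation or oxidation. Glutamine can feed cytosolic citrate through the TCA cycle or through reductive carboxylation, and SREBP transcription factors are known to drive many of these genes.

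Deprived cells had less mRNA of the enzymes that make acetyl-CoA, malonyl-CoA and palmitate. FASN was at 35.04% of the control level, ACACB at 46.5%, ACSS2 at 53.9%, ACACA at 55.7% and ACLY at 59.7%. ME1, at 87.5%, was not called. The synthetases did not move as a group: ACSL1 was 1.46-fold higher, ACSL3 1.23-fold lower, ACSL5 2.61-fold lower at a very low level, and ACSL4 differed more between the 2 control libraries than between the groups. All 10 genes passed the filter on low counts. In edgeR's quasi-likelihood test, with p-values adjusted over all tested genes by the Benjamini-Hochberg method and called under 0.05, 7 of the 10 fell, 1 rose and 2 were not called. Among all 24527 tested genes, 24.4% fell and 25.2% rose, 49.6% in all, and the median log2 fold change (deprived over control) was -0.06 against -0.79 for the 10 genes. In 9 of the 10 genes the CPM (counts per 1000000 counts, on library sizes scaled with TMM) of the groups did not overlap, as in 76.5% of all tested genes, and in 8 both deprived libraries lay below both controls, as in 40.5%.

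**Figure D1:**
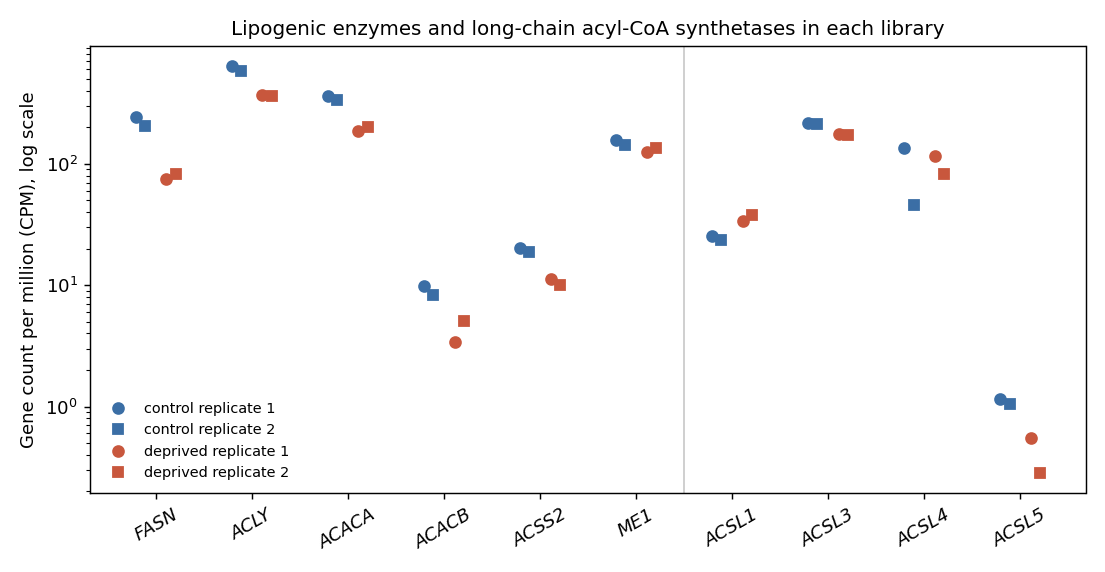
CPM of the 10 genes in each library on a log scale, with control libraries in blue and deprived libraries in red (circles for replicate 1, squares for replicate 2) and a line dividing lipogenic enzymes from synthetases. FASN fell from 206 and 243 CPM to 74.5 and 82.7, and control replicate 2 of ACSL4 lies at 45.4 CPM, apart from the 134 of control replicate 1.

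The libraries held 101496318 and 101982373 counts (control) and 123414592 and 120425759 (deprived). TMM factors were 1.15 and 1.10 for controls and 0.862 and 0.919 for deprived libraries, so scaling matters here: with library size alone the median change over all tested genes moved to -0.40 (log2), and 4179 genes rose and 8565 fell in place of 6174 and 5982. Epithelial markers were present, with 6 of 7 at 1 CPM or more in every library, at a summed 8229 to 8389 CPM in control and 3569 to 4181 in deprived cells. Of 9 alveolar type II markers, 1 reached 1 CPM in every library and SFTPA1 was at 0 throughout. Markers of other cells were scarce. The summed level of 5 adipocyte markers was 1.46 to 1.51 CPM in control and 0.239 to 0.369 in deprived cells, with ADIPOQ and FABP4 at 0. That of 6 fibroblast markers was 3.19 to 3.44 and 1.71 to 2.16 CPM, that of 5 endothelial markers 0.735 to 0.910 and 0.124 to 0.166, and that of 6 blood cell markers 1.98 to 14.0 and 0.940 to 1.23. These markers moved with the groups, and their part in the results was not tested. Counts are relative within a library, and in such bulk samples fewer cells of a type and less RNA per cell cannot be told apart.

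ACLY, ATP citrate lyase (ENSG00000131473; GRCh38 chromosome 17, 41866908 to 41930542, minus strand), links citrate to the cytosolic acetyl-CoA pool. It stood at 637 and 580.2 CPM in the control libraries and at 366 and 360.3 CPM in the deprived libraries. Replicates differed by at most 1.10-fold and the groups were apart. The log2 fold change was -0.74 ± 0.08 (SE; edgeR adjusted p = 0.000663, n = 2 per group, lower in 2 of 2 deprived libraries). ACSS2, the cytosolic and nuclear acetyl-CoA synthetase (ENSG00000131069; chromosome 20, 34872146 to 34927962, plus strand), was at 20.3 and 18.8 CPM in control and 11.1 and 9.95 CPM in deprived cells. These groups were apart as well, with a log2 fold change of -0.89 ± 0.11 (edgeR adjusted p = 0.00113).

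Both routes to cytosolic acetyl-CoA had lower mRNA. Per transcript length (sum over transcripts), ACLY exceeded ACSS2 by 18.5-fold and 16.2-fold in control replicates 1 and 2 and by 18.7-fold and 19.8-fold in deprived replicates 1 and 2. Those ranges overlap. By the length of the most counted transcript alone the ratios were 22.2, 21.8, 23.2 and 25.6, with both deprived values above the controls, so the order of the groups depends on the length used.

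The stretch before the ACLY start is printed because ACLY had the highest level per length of the 10 genes and its window holds both promoter motifs found there. It covers chr17:41919023-41919272 on the minus strand of GRCh38.p14 (RefSeq), ends at the base before the annotated start and lies outside the exons of GENCODE 29. Capitals mark CCAAT boxes (CCAAT or ATTGG, the known target of NF-Y, a usual partner of SREBPs) and GC boxes (GGGCGG or CCGCCC, the known target of Sp1).
ACLY: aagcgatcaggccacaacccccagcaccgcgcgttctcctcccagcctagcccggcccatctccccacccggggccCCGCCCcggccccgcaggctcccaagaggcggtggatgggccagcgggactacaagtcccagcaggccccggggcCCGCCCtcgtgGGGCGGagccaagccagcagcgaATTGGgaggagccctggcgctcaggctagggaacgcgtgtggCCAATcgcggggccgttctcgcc
It holds 2 CCAAT boxes and 3 GC boxes.

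The motifs below were searched on both strands in RefSeq windows that run from 250 bases before to 50 bases after a gene's start. For 9 members a window was used whose start lies within 250 bases of that of their most counted transcript. FASN has no window and was not searched. The 2 starts can differ, and for ACSS2 only 73 bases of the window lie before the start of ACSS2-202. TCACNCCAC (a sterol regulatory element core) was in 0 of these 9 windows and in 1.13% of all 35116 windows, CACGTG (E-box) in 0 of 9 and 7.26%, and TGATGNAA (an amino acid response core) in 0 of 9 and 3.62%. CCAAT was in 2 of 9 (ACLY and ACSL3) and in 34.6% of all windows. GGGCGG was in 7 of 9 (all but ACACB and ACSL5) and in 45.0%. These 9 members have 19 windows in all, of which 1 per member was counted. Among the others, an ACSL1 window (start 184805553) holds 1 sterol regulatory element core. An ACACB window (start 109154679) holds 3 GC boxes and 2 CCAAT boxes, and some further windows hold CCAAT or GC boxes too. None of these motifs contains another, matches of 1 motif can overlap, and a window without a match says only that these letters are not in it.

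ACACA, acetyl-CoA carboxylase 1 (ENSG00000278540; chromosome 17, 37084988 to 37406818, minus strand), makes the malonyl-CoA used for synthesis. It was at 361 and 338 CPM in control and at 187 and 202 CPM in deprived cells. The groups were well apart, and replicates differed by at most 1.08-fold. Its log2 fold change was -0.84 ± 0.08 (edgeR adjusted p = 0.000336). ACACB, the mitochondrially anchored carboxylase whose malonyl-CoA restrains CPT1 (ENSG00000076555; chromosome 12, 109116595 to 109268226, plus strand), was at 9.82 and 8.38 CPM in control and 3.38 and 5.09 CPM in deprived cells. Its deprived libraries differed by 1.51-fold and still lay below both controls (log2 fold change -1.10 ± 0.23, edgeR adjusted p = 0.00908). Per length (sum over transcripts), ACACA exceeded ACACB by 18.2-fold and 22.03-fold in control replicates 1 and 2 and by 29.96-fold and 29.3-fold in deprived replicates 1 and 2. By the length of the most counted transcript alone the ratios were 34.5, 37.9, 52.1 and 37.3, and these ranges of the groups overlap.

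ACACA has more than 1 promoter, and 2 annotated starts held most of its counts. ACACA-237, which begins at the upstream start (position 37406780), had 20293 and 17375 estimated counts in control and 7779 and 7795 in deprived cells. It fell by 1.22 on the log2 scale (SE 0.12, edgeR adjusted p = 0.0495 over all transcripts). ACACA-231, which begins 47.7 kb further into the gene (position 37359116), had 17875 and 14970 counts in control and 10410 and 8882 in deprived cells (-0.71 ± 0.16, edgeR adjusted p = 0.110, not called). For both transcripts the deprived libraries lay below both controls, as in 40.5% of all tested genes. That share was not counted over transcripts.

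Summed over the 4 transcripts of each start, the upstream start took 51.5% and 49.4% of the counts of both starts in control and 41.9% and 45.4% in deprived cells. Its CPM was 2.29-fold lower and that of the other start 1.74-fold lower. These shares of the groups did not overlap, but the split was chosen after the values were seen and the difference was not tested. With 2 against 2 libraries an exact two-sided permutation test cannot give a p below 0.333. Of all ACACA counts, the upstream start held 49.3% and 46.8% in control and 39.9% and 35.7% in deprived cells. The second start held 46.5% and 48.0% in control and 55.2% and 42.9% in deprived cells, so by that measure its groups overlapped. Another start, at position 37299767 held 2.71% and 3.69% of ACACA counts in control and 2.69% and 16.1% in deprived cells, so deprived replicate 2 stood apart there. The stretches before both main starts follow, since they differ in their letters. The upstream run covers chr17:37406950-37407086 and the other chr17:37359122-37359346, both on the minus strand of GRCh38.p14 and trimmed to bases outside GENCODE 29 exons, with CCAAT and GC boxes in capitals as before.
ACACA upstream start: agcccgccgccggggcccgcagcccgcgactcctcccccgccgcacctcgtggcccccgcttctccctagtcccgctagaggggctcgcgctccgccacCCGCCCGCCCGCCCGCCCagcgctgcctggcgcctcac
ACACA second start: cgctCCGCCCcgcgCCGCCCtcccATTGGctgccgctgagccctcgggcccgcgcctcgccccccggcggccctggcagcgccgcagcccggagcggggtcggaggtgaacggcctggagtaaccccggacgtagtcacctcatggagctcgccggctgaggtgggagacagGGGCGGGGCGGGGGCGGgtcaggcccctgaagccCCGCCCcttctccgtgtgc
The upstream run, of 137 bases, holds 4 overlapping GC boxes and 0 CCAAT boxes. The second run, of 225 bases, holds 6 GC boxes and 1 CCAAT box. The full windows of the upstream and second start hold 6 and 7 GC boxes and 0 and 1 CCAAT boxes.

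FASN, fatty acid synthase (ENSG00000169710; chromosome 17, 82078333 to 82098332, minus strand), carries out all steps from malonyl-CoA to palmitate. It stood at 243 and 206 CPM in control and at 74.5 and 82.7 CPM in deprived cells. The lowest control library was more than double the highest deprived one. The log2 fold change of -1.51 ± 0.11 (edgeR adjusted p = 0.000107) was the furthest from 0 of the 10 genes. Per length (sum over transcripts), ACACA and FASN were near parity in control libraries, with ratios of 0.998 and 1.26 in replicates 1 and 2, and ACACA was ahead by 2.28-fold and 2.14-fold in deprived replicates 1 and 2. By the most counted transcript the ratios were 1.28, 1.41, 2.16 and 2.10, so by either length the deprived ratios lay above both controls.

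By the estimated split among transcripts, most of the fall in FASN counts lay in the full-length FASN-201. It had 25895 and 21576 estimated counts in control and 6597 and 6507 in deprived cells, a log2 fold change of -1.80 ± 0.13 (edgeR adjusted p = 0.0412 over all transcripts). FASN-206, which differs little in length and was singled out after its values were seen, had 1484 and 819 counts in control and 1119 and 2390 in deprived cells (0.66 ± 0.52, edgeR adjusted p = 0.499). Its groups overlapped in counts, and its exons lie within those of FASN-201, so the split of reads between them is uncertain. As a share of FASN counts it went from 5.35% and 3.61% to 14.4% and 26.6%, so the gene sum fell less than FASN-201.

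ME1, the cytosolic malic enzyme that yields NADPH (ENSG00000065833; chromosome 6, 83210389 to 83431071, minus strand), has 1 annotated transcript. It was at 157 and 142 CPM in control and 126 and 136 CPM in deprived cells. Both deprived libraries lay below both controls by a small margin. The difference was a log2 fold change of -0.19 ± 0.08 (edgeR adjusted p = 0.104, not called). It passed the threshold under 3 of 13 alternative settings, always as lower: library size only (-0.53, adjusted p = 0.00609), upper-quartile factors (-0.30, adjusted p = 0.0366) and a filter of 50 counts in at least 2 libraries (-0.24, adjusted p = 0.0485), all by edgeR.

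**Figure D2:**
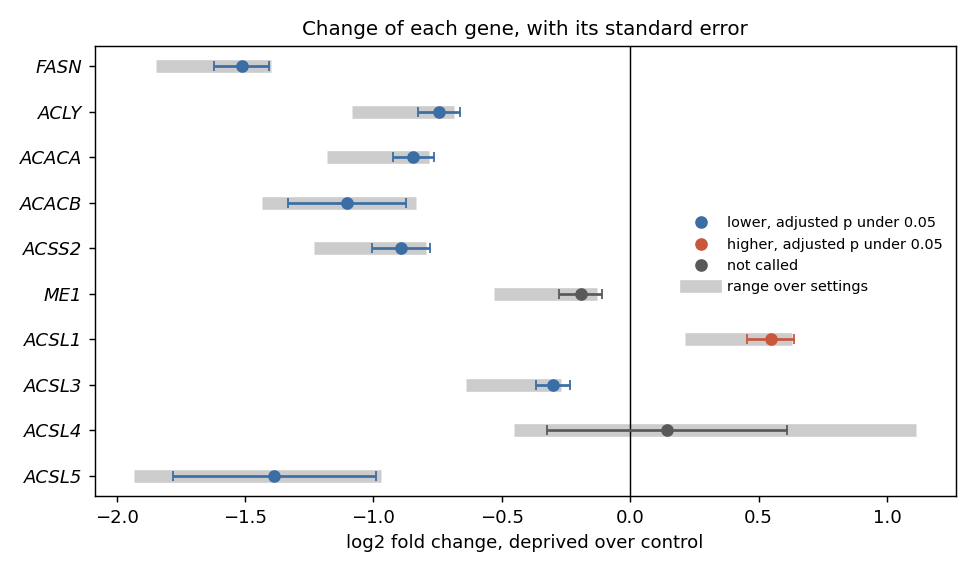
Log2 fold change (deprived over control) of the 10 genes, with points for the estimate, bars for its standard error and grey bands from the lowest to the highest of 13 alternative settings. FASN, ACLY, ACACA, ACACB, ACSS2, ME1, ACSL3 and ACSL5 stay below 0 across their bands, and ACSL1 stays above 0. The band of ACSL4 runs from -0.45 to 1.11.

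Of the long-chain acyl-CoA synthetases, ACSL1 was the one that rose. ACSL1 activates fatty acids for triglyceride synthesis or oxidation, depending on the tissue (ENSG00000151726; chromosome 4, 184755595 to 184826818, minus strand). It was at 25.6 and 23.8 CPM in control and at 34.0 and 38.1 CPM in deprived cells. Both deprived libraries lay above both controls. It rose, with a log2 fold change of 0.55 ± 0.09 (edgeR adjusted p = 0.00346). With library size only it was 0.21 and not called (edgeR adjusted p = 0.163). The main transcript ACSL1-201 had 2833 and 1114 estimated counts in control and 3340 and 3634 in deprived cells, and ACSL1-211, which starts further upstream, had 1 and 1438 in control and 0 and 0 in deprived cells. Control replicate 2 thus had most of its ACSL1 counts on another transcript, and ACSL1-201 was not called (0.89 ± 0.50, edgeR adjusted p = 0.358).
The stretch before the RefSeq start of ACSL1 is printed because this gene moved against the lipogenic enzymes. It covers chr4:184826120-184826218 on the minus strand of GRCh38.p14, with GC boxes in capitals.
ACSL1: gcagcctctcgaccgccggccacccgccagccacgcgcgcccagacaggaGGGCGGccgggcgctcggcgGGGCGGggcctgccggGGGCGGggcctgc
It holds 3 GC boxes and 0 CCAAT boxes, and the full window holds 6 GC boxes and 0 CCAAT boxes. GC boxes were in 45.0% of all windows, and their part in the changes was not tested.

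ACSL3, found on the endoplasmic reticulum and nascent lipid droplets (ENSG00000123983; chromosome 2, 222860934 to 222944639, plus strand), was at 216 and 214 CPM in control and 176 and 173 CPM in deprived cells. Replicates differed by at most 1.02-fold and the groups were apart. By edgeR it fell, with a log2 fold change of -0.30 ± 0.07 (edgeR adjusted p = 0.0112). The call was lost without control replicate 1 (edgeR adjusted p = 0.0508) and without deprived replicate 2 (edgeR adjusted p = 0.0564), with the change at -0.31 and -0.27. ACSL3-201 had 17305 and 14930 estimated counts in control and 12614 and 9833 in deprived cells. The shorter ACSL3-202 had 7034 and 8299, and 5265 and 8553, so its groups overlapped.

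ACSL4, which prefers arachidonate and other polyunsaturated fatty acids (ENSG00000068366; chromosome X, 109624244 to 109733403, minus strand), was at 134 and 45.4 CPM in control and 115 and 83.0 CPM in deprived cells. The control libraries differed by 2.96-fold and both deprived libraries lay between them. The log2 fold change was 0.14 ± 0.47 (edgeR adjusted p = 0.829, not called). Its sign rested on single libraries: it was 1.11 without control replicate 1 (edgeR adjusted p = 0.00391, higher), -0.45 without control replicate 2, -0.11 without deprived replicate 1 and -0.22 with library size only.

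Beneath the level of the gene, ACSL4 transcripts differed. Full-length ACSL4-202 had 12325 and 4392 estimated counts in control and 2993 and 2009 in deprived cells (-1.67 ± 0.60, edgeR adjusted p = 0.203, not called). ACSL4-206, an annotated transcript of 802 bases and 3 exons that ends at position 109682813, inside the gene, had 292 and 523 counts in control and 6481 and 3300 in deprived cells (3.64 ± 0.59, edgeR adjusted p = 0.0743, not called). Both transcripts had groups that did not overlap, as in 76.5% of all tested genes. That share was not counted over transcripts. ACSL4-204, full-length from a nearby start, had 2667 and 0 counts in control and 2330 and 3534 in deprived cells, so control replicate 2 stood apart.

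Grouped by their 3' end, a split chosen after the values were seen, the 3 ACSL4 transcripts that share the end of ACSL4-202 were at 131 and 39.9 CPM in control and 51.6 and 51.1 CPM in deprived cells. Those groups overlapped. The 8 transcripts that end elsewhere were at 3.00 and 5.50 CPM in control and 63.7 and 31.9 CPM in deprived cells. Their part of ACSL4 counts was 2.24% and 12.1% in control and 55.2% and 38.4% in deprived cells. ACSL4 also shares 78 exonic bases with KCNE5 on the same strand, a gene with 24 and 16 counts in control and 155 and 58 in deprived cells; its part in the ACSL4 values was not tested.

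ACSL5, a synthetase best known from intestine and liver (ENSG00000197142; chromosome 10, 112374018 to 112428380, plus strand), was barely expressed. It had 132 and 115 counts (1.16 and 1.04 CPM) in control and 58 and 31 counts (0.555 and 0.286 CPM) in deprived cells. Both deprived libraries lay below both controls and differed by 1.94-fold from each other. The log2 fold change was -1.39 ± 0.40 (edgeR adjusted p = 0.0294). The call was lost under 4 of 13 settings, with adjusted p of 0.0657 with no filter and, without control replicate 1, control replicate 2 and deprived replicate 2, of 0.102, 0.0768 and 0.0564. ACSL5 shares 144 exonic bases with ZDHHC6 on the other strand, which had 8401 to 10127 counts, and whether counting used strand is not given in the sources used here, so reads of the pair cannot be told apart in that overlap. Its transcripts alternated between libraries: ACSL5-202 had 130, 0, 0 and 28 counts and ACSL5-204 had 0, 112, 58 and 0 in control replicates 1 and 2 and deprived replicates 1 and 2.

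**Figure D3:**
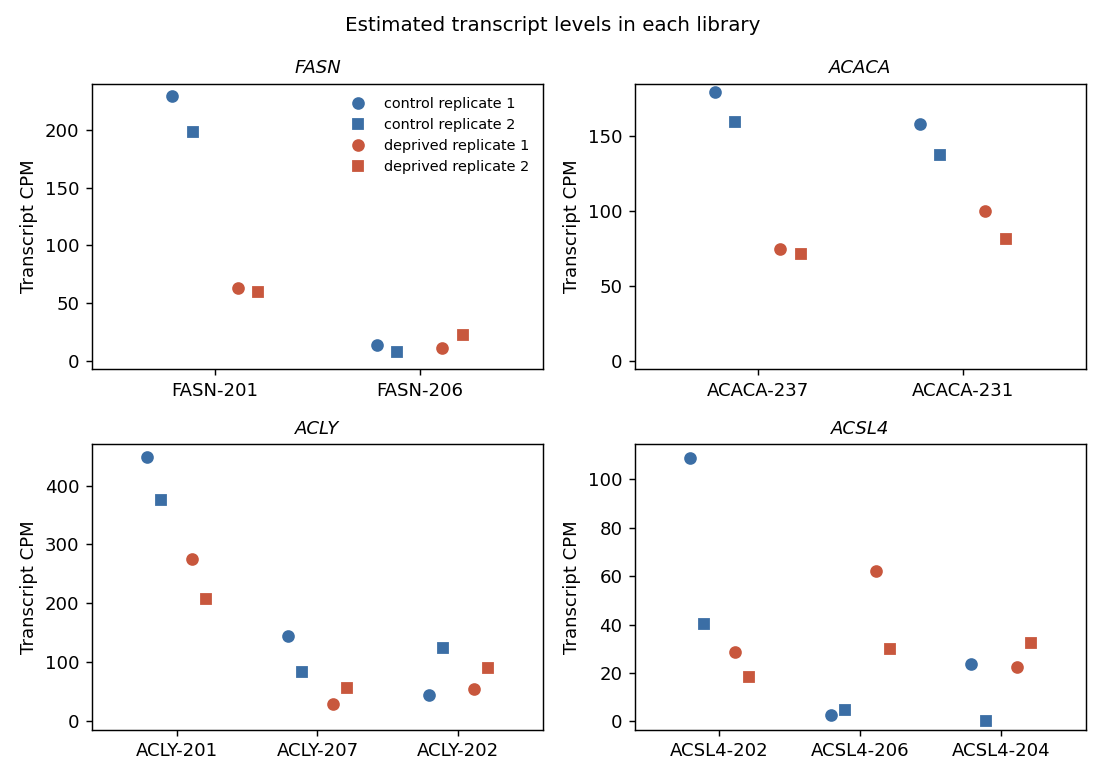
CPM of named transcripts of FASN, ACACA, ACLY and ACSL4 in each library (linear axes, blue for control and red for deprived, circles for replicate 1 and squares for replicate 2). ACACA-237 had 20293 and 17375 counts in control and 7779 and 7795 in deprived cells, and ACSL4-206, with 292 and 523 counts in control, lies higher in both deprived libraries.

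The transcript level as a whole gave few calls. Of 129 transcripts of the 10 genes, 115 had a count, 61 were tested and 2 were called, FASN-201 and ACACA-237, both lower. Over all 83759 tested transcripts 1.67% were called, 1.12% as higher and 0.542% as lower. Neither call is firm: both were lost with no filter, with the replicate block and without any 1 library, and that of ACACA-237 also with RLE factors, though in those settings the log2 fold change stayed between -1.92 and -1.70 for FASN-201 and between -1.32 and -1.14 for ACACA-237. Of the 61 tested transcripts of the members 26 had an unadjusted p under 0.05 by edgeR, beside 21758 of all 83759 tested transcripts. Estimated counts can move between similar transcripts from library to library. Within ACLY, ACLY-201 had 50754 and 40863 counts in control and 28737 and 22791 in deprived cells, ACLY-207 had 16463 and 9195, then 3077 and 6220, and ACLY-202 had 5108 and 13607, then 5730 and 9833. ACLY-201 and ACLY-207 did not overlap between groups, as in 76.5% of all tested genes (not counted over transcripts), and ACLY-202 did. In ACACB, ACACB-201 had 197 and 805 counts in control and 314 and 522 in deprived cells, while ACACB-202 had 547 in control replicate 1 and 0 elsewhere. ACSS2-202 held most ACSS2 counts, with 2076 and 1735 in control and 960 and 951 in deprived cells (-0.94 ± 0.22, edgeR adjusted p = 0.111).

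Levels of different genes were compared per transcript length, as TPM (counts per base of transcript, scaled to 1000000 a library) summed over each gene's transcripts. In control cells ACLY was highest at 291 ± 44.5 TPM (SD, n = 2), ahead of ACSL3 (108 ± 6.34), ACACA (90.5 ± 8.70), ME1 (90.5 ± 14.1) and FASN (81.9 ± 21.2). Below them came ACSL4 (46.7 ± 24.8), ACSS2 (16.7 ± 1.06), ACSL1 (13.2 ± 2.07), ACACB (4.57 ± 1.05) and ACSL5 (0.724 ± 0.0924). Values of the neighbours ACACA, ME1 and FASN overlapped between libraries, and the other neighbours did not.

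In deprived cells ACLY stayed first at 136 ± 12.8 TPM, with ACSL4 at 111 ± 33.8 overlapping it. ACSL3 (77.7 ± 8.47), ME1 (62.7 ± 10.0) and ACACA (42.9 ± 6.63) followed. FASN, at 19.5 ± 3.90 TPM, overlapped ACSL1 (15.97 ± 3.27), and ACSS2 (7.07 ± 0.369), ACACB (1.45 ± 0.245) and ACSL5 (0.225 ± 0.0287) closed the order. The place of ACSL4 rests on the short ACSL4-206, which gave 115 of 135 TPM in deprived replicate 1. Dividing each gene's counts by the length of its most counted transcript put ACSL4 at 33.0 ± 4.24 TPM in deprived cells and FASN at 56.3 ± 11.6 in control cells. Short FASN fragments, with 1.30% of FASN counts in control replicate 1, made up 36.5 of its 96.9 summed TPM.

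Genes around these enzymes were counted in 9 lists of 136 distinct genes, of which 124 were tested. Among these 27 rose, 60 fell and 37 were not called, with a median log2 fold change of -0.36 beside -0.06 for all tested genes. Of all tested genes 25.2% rose and 24.4% fell, and the counts of each list below are to be read beside those shares. ELOVL3 and PLIN5 were at 0 in both deprived libraries, and with them at a bound of 3 counts per library the list medians below were the same. In the list of citrate and NADPH supply (12 tested), 6 fell and 2 rose, with a median of -0.52. With library size only 10 fell and 0 rose. SLC25A1, the carrier that exports mitochondrial citrate to ACLY, was at 124 and 122 CPM in control and 31.0 and 26.9 CPM in deprived cells (-2.09 ± 0.09, edgeR adjusted p = 2.41e-05), so its groups were far apart. PC (pyruvate carboxylase, which refills oxaloacetate) and PGD of the pentose phosphate pathway fell (log2 fold changes -1.46 and -2.59). ME3, a mitochondrial counterpart of ME1, rose by 0.50 ± 0.08.

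Relatives of the synthetases and genes of fatty acid uptake fell in 10 of 15 tested and rose in 0 (median -0.96). ACSS1, the mitochondrial acetyl-CoA synthetase, was at 24.2 and 24.2 CPM in control and 9.83 and 9.01 CPM in deprived cells (-1.36 ± 0.10). SLC27A4, a fatty acid transport protein with synthetase activity, and FABP5, a fatty acid carrier, fell (log2 fold changes -1.01 and -1.69). ACSL6 and 6 other genes of this list had too few counts to test. Among thioesterases, which undo what the synthetases do, and MLYCD, which removes malonyl-CoA, 5 of 11 tested rose and 4 fell (median -0.14). ACOT9 (1.24 ± 0.07), ACOT2 (1.12 ± 0.07) and ACOT1 (0.96 ± 0.09) rose. ACOT1 and ACOT2 are near-identical copies, so their separate values are uncertain. MLYCD fell by 0.60 on the log2 scale. The number that rose was 3 with no filter, without deprived replicate 1 and with protein-coding transcripts only.

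Desaturases and elongases, which modify fatty acids, made or taken up, fell in 9 of 15 and rose in 3 (median -0.71). FADS2, SCD5 and SCD, all desaturases, fell (log2 fold changes -3.09, -2.31 and -2.002). The elongases ELOVL7 (1.23 ± 0.07) and ELOVL1 (0.86 ± 0.10) and the ketoacyl reductase HSD17B12 (0.79 ± 0.09) rose, while ELOVL6, which extends palmitate, fell by 0.80. In glycerolipid synthesis and lipid droplets, 11 of 21 fell and 3 rose (median -0.36). HILPDA, an inhibitor of the lipase PNPLA2, was at 66.6 and 65.7 CPM in control and 9.75 and 10.4 in deprived cells (-2.71 ± 0.08). PNPLA2 itself, which releases fatty acids from triglyceride, was at 9.99 and 10.3 CPM in control and 58.3 and 57.0 in deprived cells (2.50 ± 0.08, edgeR adjusted p = 1.32e-05). The acyltransferase AGPAT2 fell by 1.38, and the droplet coat gene PLIN2 was at 54.8 ± 1.69 and 55.4 ± 4.97 CPM (0.02 ± 0.09, edgeR adjusted p = 0.895), a sign that turned with the scaling (-0.32 with library size only).

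Regulators of the SREBP, ChREBP and LXR systems fell in 10 of 19 and rose in 4 (median -0.44). With library size only 2 rose. SREBF1, whose product drives lipogenic genes, was at 133 and 119 CPM in control and 56.1 and 60.0 CPM in deprived cells (-1.12 ± 0.08, edgeR adjusted p = 0.000138). SREBF2, NR1H3 (LXR alpha) and INSIG1, an SREBP target that retains SREBPs in the endoplasmic reticulum, fell (log2 fold changes -0.63, -2.04 and -3.08). MID1IP1, whose product promotes polymerization of acetyl-CoA carboxylase, rose by 0.64 ± 0.08.

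AMPK phosphorylates and inhibits both carboxylases. Of 10 tested AMPK subunits and upstream kinase genes, 6 rose and 3 fell (median 0.66). The beta subunit PRKAB1 was at 42.4 and 42.4 CPM in control and 183 and 168 CPM in deprived cells (2.05 ± 0.08, edgeR adjusted p = 1.62e-05). PRKAB2 rose by 1.35 ± 0.07 and the catalytic subunit PRKAA2 by 1.26 ± 0.08. The kinase genes STK11 and CAMKK2 fell (log2 fold changes -0.62 and -2.06). Mitochondrial fatty acid synthesis is a separate pathway with its own acyl carrier protein. Of its 9 genes 3 rose and 2 fell (median 0.31), beside 25.2% and 24.4% of all tested genes. NDUFAB1, that carrier protein, rose by 0.68 ± 0.14, HSD17B8 by 0.65 ± 0.15 and LIPT1 by 1.39 ± 0.33, and the HSD17B8 call was lost with library size only and with protein-coding transcripts only. The number that fell was 0 without control replicate 2 and without deprived replicate 2, and 1 with no filter and without control replicate 1.

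Of 12 genes of peroxisomal and mitochondrial acyl-CoA use, 5 fell and 1 rose (median -0.42), against 9 that fell with library size only. The peroxisomal enzymes HSD17B4 (-1.26 ± 0.07), ACAA1 (-1.46 ± 0.10) and ACOX2 (-1.71 ± 0.18) fell, the HSD17B4 call being lost with protein-coding transcripts only (-0.76). CPT1A, the malonyl-CoA-sensitive entry step of mitochondrial oxidation, was at 104 ± 4.78 and 99.7 ± 5.09 CPM (-0.05 ± 0.08, edgeR adjusted p = 0.591, not called) and was called lower with library size only (-0.39). SLC25A20, the acylcarnitine carrier, was the gene of this list that rose (0.73 ± 0.12).

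**Figure D4:**
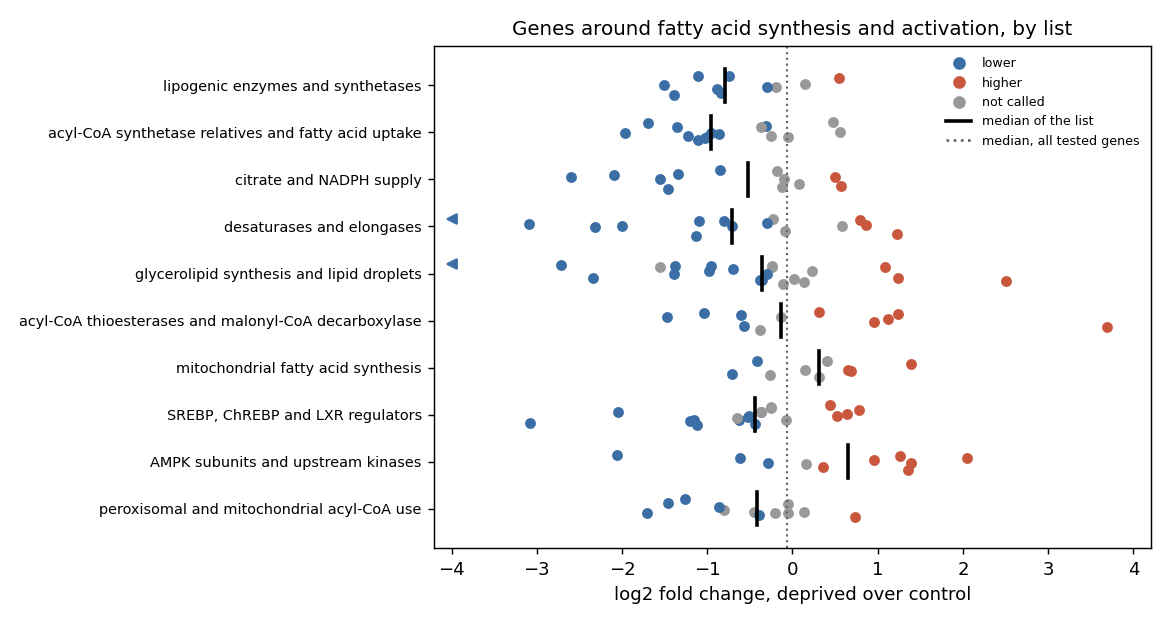
Log2 fold change (deprived over control) of each tested gene by list, with blue, red and grey points for lower, higher and not called, black bars for list medians, a dotted line for the median of all tested genes (-0.06) and arrowheads for values beyond the axis. The medians run from -0.96 for synthetase relatives and uptake to 0.66 for AMPK subunits and upstream kinases.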

How the data were processed

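Poly-T-selected RNA of 4 A549 libraries was sequenced, per the labels' protocols. The authors deposited estimated counts per transcript as whole numbers, per the file headers, in files that list 229420 transcripts each. The submitters' processing notes name HISAT2 2.0.5, featureCounts 1.5.0-p3, DESeq2 1.20.0 and hg38, and how reads were divided among transcripts is not given in the sources used here. Transcripts were summed to genes with GENCODE release 29 (GRCh38), which matched 205306 identifiers holding 98.0% to 98.2% of the counts. The other 24114 stayed out, so some sums are partial.

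Libraries totalled 101496318 to 123414592 counts. Genes were filtered with filterByExpr, scaled with TMM and tested with edgeR 4.0.16 (glmQLFit, glmQLFTest, group only, two-sided) in R 4.3.3, with Benjamini-Hochberg adjustment and a threshold of 0.05. The test was planned for genes and used also for transcripts. SEs are the absolute log2 fold change over the square root of F. The common biological coefficient of variation was 0.210. Replicates differed beyond sampling noise (chi-square per degree of freedom 31.0 and 43.6), so none was counted as a copy. Scripts were tested on simulated data. There the gene test recovered most changes, but its false calls exceeded the threshold when each gene was simulated with its own estimated dispersion and not when dispersions followed the trend. The transcript test missed the changes put in, so a transcript that was not called may still have changed.

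Named were all 10 members, up to 3 transcripts per member with at least 10% of its counts, the 3 genes of smallest p in each list, and SREBF1, SREBF2, INSIG1, SCD, PLIN2, CPT1A and SLC25A1. Other genes and transcripts named were chosen after their values were seen. Members and lists were chosen with earlier results of these data known. Alternatives used RLE factors, upper-quartile factors or plain library sizes, no filter or 50 counts in at least 2 libraries, DESeq2 1.42.0, limma-voom (limma 3.58.1), a replicate block, each library left out, and protein-coding transcripts only. The level by the most counted transcript was added after seeing the data. A deposited table of long non-coding RNAs, which holds no member, was not used here.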

Additional observations from a re-analysis of the deposited data

How the results depend on the processing

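FASN, ACLY, ACACA, ACACB and ACSS2 were called lower under all 13 alternatives, FASN between -1.85 and -1.40 and ACACA between -1.18 and -0.78 on the log2 scale. Members called higher were 1 in the main analysis, 0 with library size only, and 1 to 2 without 1 replicate. Member transcripts called were 2 in the main analysis, 1 with RLE factors, 0 with no filter (24 at an unadjusted p under 0.05 by edgeR) and 26 with DESeq2. All transcripts called were 1395 in the main analysis, 5259 with 50 counts in at least 2 libraries, 25279 with DESeq2 and 3141 with limma-voom, and 0 by edgeR with no filter, with the replicate block and without any 1 replicate (23956, 14850 and 15105 to 18646 at an unadjusted p under 0.05). Without 1 replicate 0 member transcripts were called in each case, with 12 to 21 at an unadjusted p under 0.05 by edgeR. With the replicate block, 0 member transcripts were called (19 at an unadjusted p under 0.05 by edgeR), and 8 members were called as in the fit without it. The labels do not say that a number marks a pair, and the correlation of same-numbered deviations was -0.023. Signs turned for ACSL4 (-0.22 with library size only, -0.45 to 1.11 without 1 replicate, -0.11 without deprived replicate 1), for PLIN2 (-0.093 with upper-quartile factors, -0.32 with library size only, -0.034 with 50 counts in at least 2 libraries, -0.041 with protein-coding transcripts only, -0.072 to 0.12 without 1 replicate) and for CPT1A (-0.11 to 0.0028 without 1 replicate). Among transcripts they turned for ACACB-201 (0.086 with limma-voom, 0.076 with the replicate block, -0.93 to 1.15 without 1 replicate) and, without 1 replicate, for ACLY-202 (-0.80 to 0.67), ACSL3-202 (-0.43 to 0.19), ACSL5-204 (-8.83 to 7.91) and ACSL5-202 (-8.96 to 6.80). The cause was not tested. ACSL5 rests on 31 to 132 counts a library, which limits the precision of its change.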
